A study of Homo sapiens with 42 samples.

Results

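Among the gene models measured in lymphoma cells, 115 had a level that moved with both hairpins against MALT1 in TMD8 cells and stayed near the control with both in OCI-Ly3 cells. Of these, 37 were raised in TMD8 and 78 were lowered. The files number their 23250 rows and do not pair the numbers with gene names, so each row is called by its number and no role can be given to it. A row was eligible if it reached 1 CPM (counts per M reads of the library) in at least 3 of the 18 knockdown libraries, which left 12303 rows. Its change was the group median of log2(CPM + 1) minus that of the shCntrl group of the same line. A member had a change of at least 0.4, or of -0.4 or less, with the same sign with both hairpins in TMD8, and a change between -0.3 and 0.3 with both in OCI-Ly3. The members were thus chosen by their knockdown values, which are given as a description with no test. The compound experiment shares no library with that choice, and all tests come from it.

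MALT1 is a scaffold protein and a protease that works below the B-cell receptor. As a scaffold it helps to switch on NF-κB, and the protease cleaves proteins that hold this signal back, among them regulators of mRNA stability. The activated B cell-like subtype of diffuse large B-cell lymphoma (ABC-DLBCL) is known for constant activity of this pathway. TMD8 and OCI-Ly3 are established human cell lines of that subtype.

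Each line gave 3 libraries in each of 7 groups, 42 libraries in 14 groups in all. In the knockdown experiment, cells were infected with a lentivirus that carried hairpin 1 or hairpin 2 against MALT1, or the control hairpin shCntrl. A hairpin is a short RNA made in the cell that lowers the mRNA it matches. In the compound experiment, cells of both lines, with no infection named in the labels, received compound 3, a MALT1 inhibitor, at 100 nM for 8 h or 24 h, or the solvent DMSO for the same times. Whether the replicates of a group were cultured separately is not in the labels, so a p-value here rests on a spread between libraries that could be technical. Without gene names, neither the loss of MALT1 itself nor marker genes of the lines could be checked.

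The rows held 15.8 to 19.4 M reads a library in the knockdown experiment and 23.3 to 31.6 M in the compound experiment. OCI-Ly3 shCntrl replicate 1 stood apart: its distance from the mean of its group's other libraries exceeded 1 log2 unit in 1168 of the 12303 rows, against at most 171 for any other knockdown library. Among members it did so in 2 raised and 9 lowered rows. Without it the rule kept 38 raised and 73 lowered rows, 35 and 65 of them members. Both sets depend on single libraries: without 1 knockdown library the rule kept 21 to 53 raised and 57 to 84 lowered rows. These lists held 18 to 36 of the 37 raised members and 44 to 76 of the 78 lowered ones. With group means in place of medians the rule kept 16 raised rows, 13 of them members, and 65 lowered rows, 46 of them members. After median-ratio rescaling it kept 24 raised rows. TMD8 compound 3 8 h replicate 1 and TMD8 DMSO 8 h replicate 1 lay that far out in 540 and 526 rows, against at most 157 for any other library of the compound experiment. Among members they did so in 5 and 3 raised rows and in 6 and 6 lowered rows.

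The raised members moved modestly. Their change in TMD8 ran from 0.40 to 1.05 with hairpin 1, with a median of 0.51, and from 0.40 to 0.81 with hairpin 2, with a median of 0.48. The smaller of both changes was under 0.5 in 30 of the 37, and 1 member reached a doubling on the log2(CPM + 1) scale with either hairpin. In OCI-Ly3 the medians were 0.14 and -0.05. All 6 hairpin libraries lay above all 3 shCntrl libraries in TMD8 in 18 of the 37 raised members, where 10.1% of all eligible rows did so. The rule used these values, so the count only describes them. In OCI-Ly3, 0 of 37 did so, with 11% of all rows.

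The lowered members moved further, with a median change in TMD8 of -0.54 with hairpin 1 and -0.67 with hairpin 2. The changes reached down to -1.22 and -1.40. The change was larger with hairpin 2 in 54 of the 78, and in 16 of the 37 raised members. A halving on the log2(CPM + 1) scale was reached with both hairpins in 3 lowered members and with either in 16. All 6 hairpin libraries lay below all 3 shCntrl libraries in TMD8 in 67 of the 78, where 8.04% of all rows did so, which again describes the choice. In OCI-Ly3, 1 of 78 did so, with 11.9% of all rows. The OCI-Ly3 medians of the lowered members were -0.04 and 0.00. In bulk samples, fewer cells of a type and less RNA per cell cannot be told apart.

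**Figure D1:**
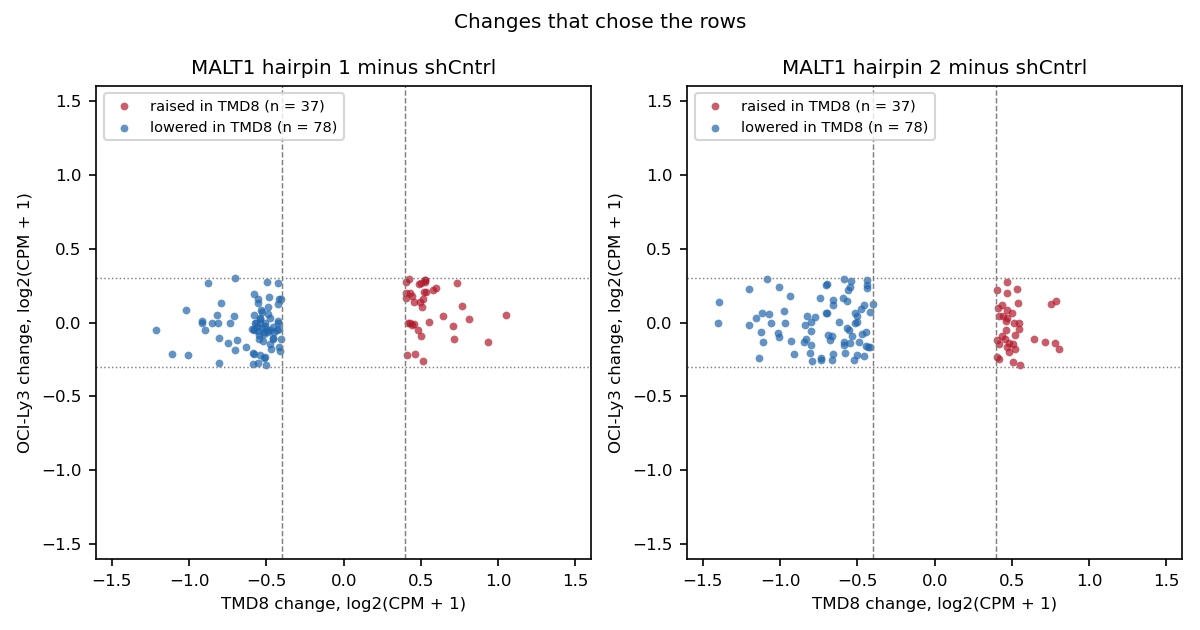
Change of each member with hairpin 1 (left) and hairpin 2 (right), as the group median of log2(CPM + 1) minus that of shCntrl, in TMD8 on the x axis and in OCI-Ly3 on the y axis. Each point is 1 of the 37 raised (red) or 78 lowered (blue) members, dashed lines mark the limits of 0.4 in TMD8 and dotted lines those of 0.3 in OCI-Ly3. The lowered points spread further from the limit, down to -1.40 with hairpin 2.

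The limits cut through a continuous range of changes. Just inside, the raised row 8001 had changes of 0.522 and 0.401 in TMD8, and row 17673 had 0.405 and 0.402. Just outside, row 13394 had 0.396 and 0.650, and row 6223 had 0.447 and 0.391. Among lowered rows, 15018 was just inside with -0.458 and -0.402, and 4439 with -0.403 and -0.737. Just outside were 9779 with -0.399 and -0.969, and 20205 with -0.398 and -0.490. Without the limit in OCI-Ly3, 93 rows were raised and 226 lowered with both hairpins in TMD8, so the members are 37 of 93 and 78 of 226. In 17 raised and 13 lowered rows the change reached 0.4 in both lines. With the lines exchanged, the same limits kept 250 raised and 185 lowered rows.

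Among raised members, row 11477 had the largest of the smaller changes, 0.80. It had 21.2, 25.2 and 26.3 CPM with hairpin 1, 27.3, 15.5 and 21.0 CPM with hairpin 2 and 10.4, 11.7 and 11.6 CPM with shCntrl in TMD8. All hairpin libraries lay above all controls, though hairpin 2 spread widely. In TMD8 of the compound experiment its level was 79.5 CPM in compound 3 8 h replicate 1 and 68.3 CPM in DMSO 8 h replicate 1, and 12.1 to 18.7 CPM in the other 10 libraries. Row 11477 was near absent from OCI-Ly3, with 0.0889 to 1.3 CPM over its 21 libraries. Both 8 h libraries numbered 1 thus had a level far above that of the hairpin libraries.

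Row 1972 had 13.1, 14.7 and 16.3 CPM with hairpin 1, 11.9, 15.0 and 13.9 CPM with hairpin 2 and 9.02, 8.25 and 8.56 CPM with shCntrl in TMD8. The hairpin libraries did not overlap the controls. In OCI-Ly3 it had at most 0.136 CPM in any library. Row 11673 had 53.3, 56.1 and 55.1 CPM with hairpin 1, 53.6, 42.9 and 51.6 CPM with hairpin 2 and 33.7, 34.9 and 38.1 CPM with shCntrl, again with no overlap. In the OCI-Ly3 shCntrl group the same row had 36.3 and 36.6 CPM in replicates 2 and 3 and 11.2 CPM in replicate 1, the library that stood apart.

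The other raised members of this kind had low levels. Row 4884 had 2.69, 3.27 and 2.74 CPM with hairpin 1, 2.66, 3.50 and 2.63 CPM with hairpin 2 and 1.61, 1.13 and 1.08 CPM with shCntrl in TMD8. Row 23232 had 2.19, 1.77 and 2.24 CPM with hairpin 1, 2.74, 1.68 and 2.36 CPM with hairpin 2 and 0.67, 0.952 and 1.33 CPM with shCntrl. Row 20370 had 2.23, 2.09 and 1.78 CPM with hairpin 1, 1.77, 1.06 and 1.65 CPM with hairpin 2 and 0.67, 0.816 and 1.21 CPM with shCntrl. The first pair showed no overlap between hairpin and control libraries, and in row 20370 hairpin 2 overlapped the controls.

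The raised members with the most reads in TMD8 DMSO cells were rows 12948 and 7290. Row 12948 had 305, 337 and 327 CPM with hairpin 1, 397, 219 and 321 CPM with hairpin 2 and 202, 227 and 270 CPM with shCntrl in TMD8. One hairpin 2 library lay among the controls. Row 7290 had 123, 133 and 127 CPM with hairpin 1, 133, 130 and 120 CPM with hairpin 2 and 90.3, 93.8 and 88.9 CPM with shCntrl, with no overlap. In OCI-Ly3 its groups did overlap, at 47.4 to 63.3 CPM over the hairpin libraries and 61.8 to 68.9 CPM over the shCntrl libraries.

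Among lowered members, rows 2766, 14906 and 9858 were those halved with both hairpins. Row 14906 had 23.6, 20.8 and 24.9 CPM with hairpin 1, 20.7, 20.8 and 18.6 CPM with hairpin 2 and 51.1, 47.8 and 48.9 CPM with shCntrl in TMD8. Every hairpin library lay far below every control. In TMD8 of the compound experiment the row had 21.4 to 30.8 CPM with compound 3 and 16.3 to 29.3 CPM with DMSO, all below the lowest shCntrl library. In OCI-Ly3 it had 29.8 to 43.6 CPM with the hairpins and 16.3, 32.0 and 30.2 CPM with shCntrl, the lowest again in replicate 1.

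Row 2766 had 0.29, 0.363 and 0.639 CPM with hairpin 1, 0.633, 0.336 and 0.4 CPM with hairpin 2 and 1.88, 1.95 and 2.37 CPM with shCntrl in TMD8. Row 9858 had 1.24, 0.681 and 0.639 CPM with hairpin 1, 0.591, 1.06 and 0.934 CPM with hairpin 2 and 2.90, 2.40 and 3.14 CPM with shCntrl. Row 158 had 0.331, 0.909 and 0.639 CPM with hairpin 1, 0.633, 0.384 and 0.623 CPM with hairpin 2 and 2.10, 2.08 and 2.41 CPM with shCntrl. In none of these rows did a hairpin library overlap the controls, at levels where the pseudocount of 1 makes the change look smaller than the ratio of the CPM values. In OCI-Ly3, rows 9858 and 158 had 4.35 and 10.5 CPM in shCntrl replicate 1, and at most 0.402 and 0.222 CPM in the other 8 knockdown libraries.

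Row 17481 had 3.64, 3.54 and 3.79 CPM with hairpin 1, 3.38, 2.5 and 2.94 CPM with hairpin 2 and 7.19, 7.66 and 8.26 CPM with shCntrl in TMD8, with no overlap. In OCI-Ly3 it was a row of 17.3 to 27.2 CPM in every knockdown library. Row 6822 had 4.22, 3.91 and 4.7 CPM with hairpin 1, 3.63, 1.10 and 3.65 CPM with hairpin 2 and 4.83, 8.84 and 10.8 CPM with shCntrl. Its lowest control lay just above its highest hairpin library. The lowered members with the most reads in TMD8 DMSO cells were rows 40 and 30. Row 40 had 82.6, 84.8 and 85.0 CPM with hairpin 1, 71.1, 87.5 and 82.8 CPM with hairpin 2 and 122, 110 and 113 CPM with shCntrl. Row 30 had 58.9, 57.4 and 55.8 CPM with hairpin 1, 65.6, 53.4 and 61.4 CPM with hairpin 2 and 84.5, 81.8 and 86.2 CPM with shCntrl. In both rows the hairpin and control libraries of TMD8 did not overlap.

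**Figure D2:**
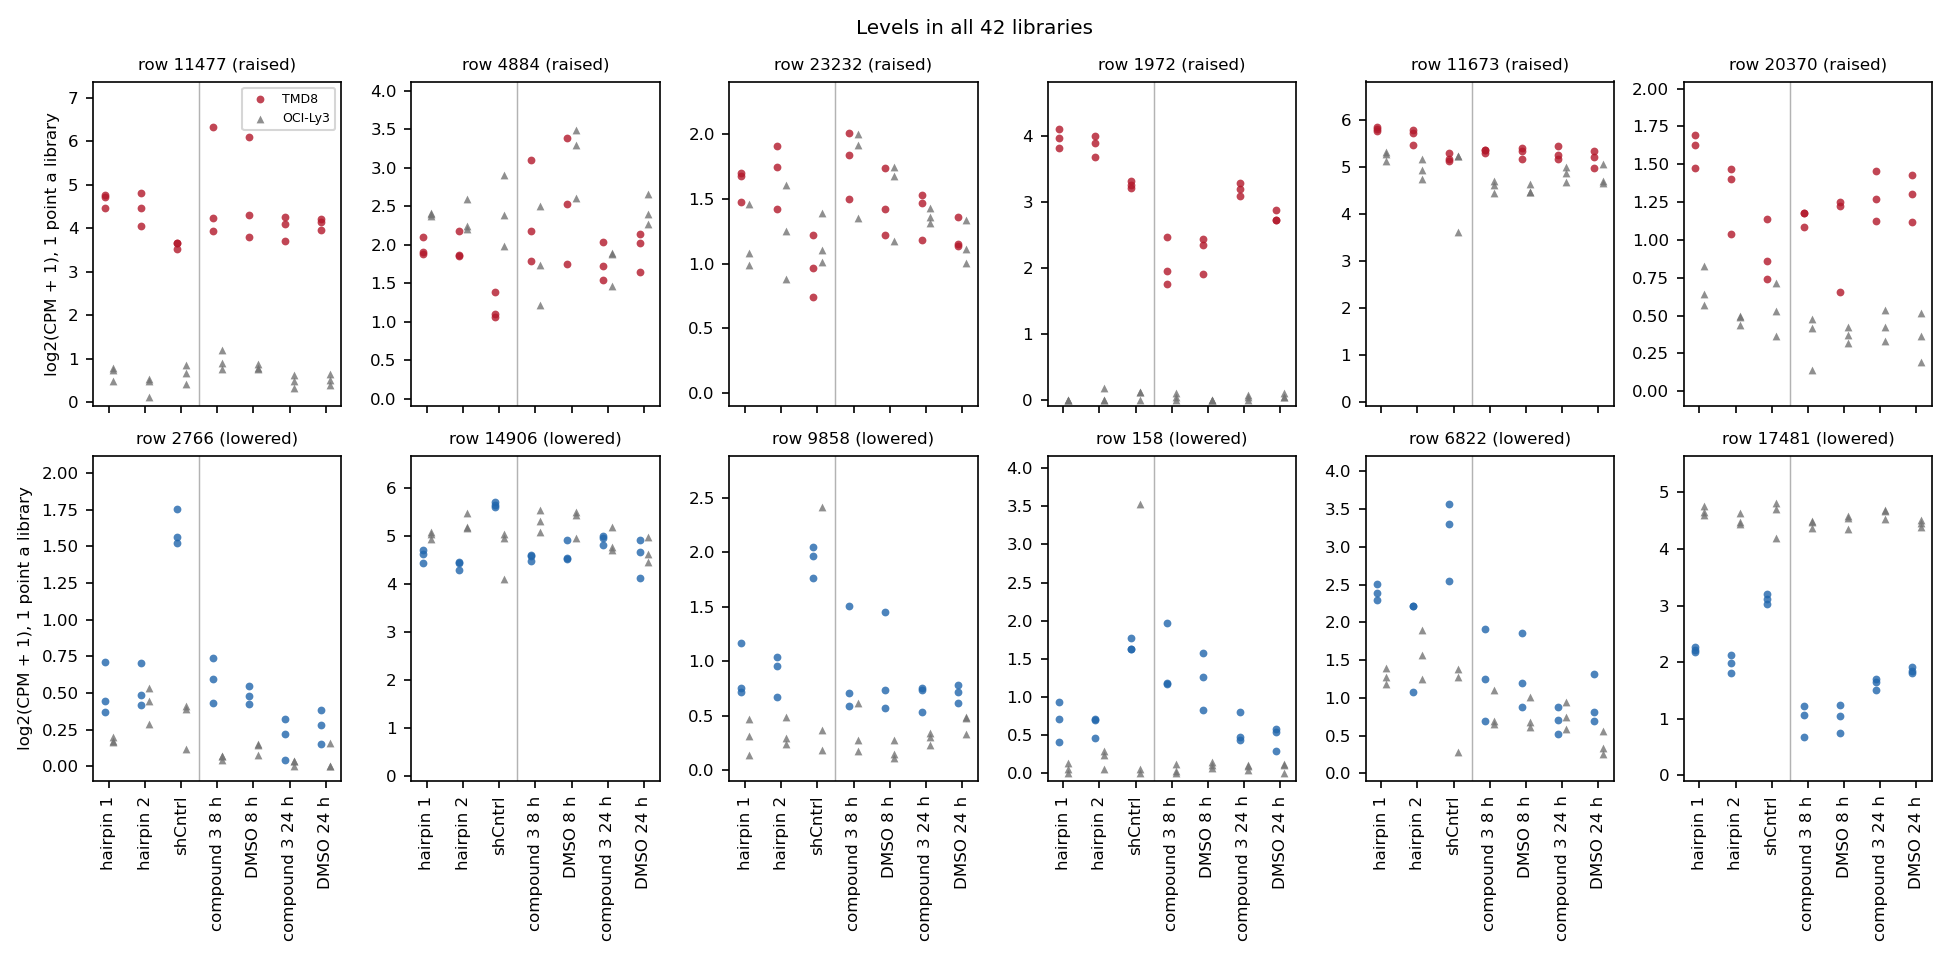
Level of the 6 raised (top) and 6 lowered (bottom) members with the largest of the smaller TMD8 changes, as log2(CPM + 1), in all 42 libraries. Each point is 1 library, circles are TMD8, triangles are OCI-Ly3, and the line parts the knockdown from the compound experiment. In TMD8 the shCntrl points of row 14906 stand at 47.8 to 51.1 CPM, above all other TMD8 libraries, and the upper points of row 11477 at 8 h are the 2 libraries numbered 1.

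The lowered members held few reads each. CPM is not scaled by the length of a gene, so these medians compare reads and not transcripts. The median over the lowered members was 3.41 CPM with hairpin 1, 3.22 CPM with hairpin 2 and 5.50 CPM with shCntrl in TMD8. Over the raised members it was 23.5, 21.3 and 15.7 CPM in the same groups, and over all eligible rows 23.3, 23.3 and 22.8 CPM. A CPM of 1 stood for 20.5 to 24.5 reads in the knockdown experiment.

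Many members were hardly present in OCI-Ly3. A mean under 1 CPM in all 7 OCI-Ly3 groups was found for 9 of the 37 raised members (24.3%) and 26 of the 78 lowered ones (33.3%), against 3.97% of all eligible rows. A row near 0 CPM can scarcely exceed the limit of 0.3 in OCI-Ly3, so for such a row the line restriction says little about the hairpins. A row nearer 1 CPM could exceed it. Rows 30 and 40 are examples of a low level: in TMD8 shCntrl they had at least 81.8 and 110 CPM, and in OCI-Ly3 knockdown libraries at most 0.853 and 1.02 CPM. Without OCI-Ly3 shCntrl replicate 1, the members under 1 CPM in all 7 groups were 8 raised (21.6%) and 28 lowered (35.9%), against 4% of all rows. Rows 158 and 9858 reach 1 CPM in OCI-Ly3 only through that library. The other 28 raised and 52 lowered members had a mean of at least 1 CPM in at least 1 OCI-Ly3 group. Their median TMD8 changes were 0.51 and 0.47 if raised and -0.53 and -0.66 if lowered. For the members under 1 CPM they were 0.50 and 0.55 if raised and -0.55 and -0.72 if lowered.

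A comparison that the rule did not use is that of both lines in DMSO, with 6 libraries a line. By limma with Benjamini-Hochberg adjustment over 12589 rows (adjusted p below 0.05), 27 of 35 raised members tested differed between TMD8 and OCI-Ly3, 15 higher and 12 lower in TMD8. Of 74 lowered members tested, 66 differed, 36 higher and 30 lower in TMD8. Of all rows 69.5% differed, 32.1% higher and 37.5% lower in TMD8, so most rows of any kind did. Rows 2442, 2766, 3841 and 9858 among the lowered members and 15953 and 18957 among the raised ones did not reach 1 CPM in 3 of the 24 libraries and were not tested.

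The widest line differences were in rows 30 and 40. Row 30 had 65.0 to 73.3 CPM at 8 h and 37.6 to 40.8 CPM at 24 h in TMD8 DMSO, against 0.198 to 0.917 CPM in OCI-Ly3 DMSO over both times. The difference was 5.30 (SE 0.11, limma adjusted p = 2.48e-20). Row 40 had 50.8 to 90.2 CPM in TMD8 and 0.453 to 1.44 CPM in OCI-Ly3, a difference of 5.29 (SE 0.17, limma adjusted p = 4.48e-17). Among raised members, row 11477 (3.76, SE 0.34, limma adjusted p = 2.04e-09) and row 8046 (3.28, SE 0.10, limma adjusted p = 1.42e-17) differed most. Row 8046 had 9.72 to 17.9 CPM in TMD8 DMSO and 0.471 to 0.708 CPM in OCI-Ly3 DMSO. In all 4 rows the lines did not overlap. All 4 had a mean under 1 CPM in every OCI-Ly3 group, the kind of row that the choice favoured.

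In the fit without a replicate block, compound 3 gave a called difference in 0 members. In TMD8, limma called 0 of 35 raised and 0 of 74 lowered members at 8 h, at 24 h and for the mean of both times, where 0% of all rows were called. In OCI-Ly3 it called 0 of both sets at 8 h and at 24 h, where 0.0397% and 0.771% of all rows were called. edgeR and DESeq2 on the recovered reads also called 0 members in each of these comparisons. Over all rows, edgeR called 0% in TMD8 and 0.0159% and 0.445% in OCI-Ly3 at 8 h and 24 h, and DESeq2 0%, 0.0874% and 1.48%. At an unadjusted p below 0.05, limma had 2 raised and 1 lowered member in TMD8 at 8 h, 1 and 2 at 24 h, and 0 and 3 for the mean. Of all rows, 1.04%, 0.731% and 0.929% were below it in these comparisons. In OCI-Ly3 there were 2 and 0 at 8 h, with 1.29% of all rows, and 2 and 4 at 24 h, with 8.14%. A p above the threshold does not show that a row was unchanged. The main fit leaves out the replicate numbers, by which libraries deviated together at 8 h in TMD8 and at both times in OCI-Ly3. Its p-values there can thus be too large, and few small ones say little about the compound.

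The members' differences under the compound were mostly small in TMD8. For the mean of both times, the raised members lay between -0.21 and 0.25 with a median of -0.01, and the lowered ones between -0.28 and 0.35 with a median of -0.04. The median over all rows was -0.01. The SE of a member had a median of 0.13 in both sets. Of the members, 0 reached 0.4 in either direction for this mean, against 0.103% of all rows. At 8 h the medians were -0.05 over raised and -0.02 over lowered members, with -0.01 over all rows. At 24 h they were 0.03 and -0.04, with 0.00 over all rows. At 8 h, 1 raised and 1 lowered member reached 0.4 in either direction, with 1.03% of all rows. At 24 h, 1 raised and 3 lowered members did so, with 1.06% of all rows.

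Row 23232, the raised member with the largest positive difference under the compound in TMD8, had 3.01, 2.56 and 1.82 CPM with compound 3 and 2.33, 1.68 and 1.33 CPM with DMSO at 8 h. At 24 h it had 1.77, 1.26 and 1.88 CPM with compound 3 and 1.22, 1.20 and 1.56 CPM with DMSO. The groups overlapped at both times, with a mean difference of 0.25 (SE 0.13, limma adjusted p = 1). Same-numbered TMD8 libraries deviated together at 8 h, and there the row was higher with compound 3 in 3 of 3 same-numbered pairs. With the replicate number as a block, limma still called 0 members in TMD8 at 8 h, where 0.0159% of all rows were called. Row 15611 had the most negative difference of the raised members, -0.21 (SE 0.15, limma adjusted p = 1). Rows 15780 and 12788 followed row 23232, both at 0.16.

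Among lowered members, rows 6332 (-0.28, SE 0.16), 3389 (-0.27, SE 0.13) and 5137 (-0.21, SE 0.12) had the most negative differences with the compound in TMD8, each with a limma adjusted p of 1. Row 3389 had 5.86, 8.35 and 9.96 CPM with compound 3 and 6.26, 8.57 and 9.10 CPM with DMSO at 8 h. At 24 h it had 8.25, 11.1 and 8.47 CPM with compound 3 and 18.3, 11.6 and 12.6 CPM with DMSO. The groups overlapped at 8 h and did not at 24 h. Row 3596 had the largest positive difference, 0.35 (SE 0.17, limma adjusted p = 1).

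Both lines were set against each other under the compound as well. The difference of the compound effects, TMD8 minus OCI-Ly3, was called by limma in 0 members of either set at 8 h and 24 h, where 0.00794% and 0.0238% of all rows were called. edgeR and DESeq2 called 0 members too, with 0% of all rows at both times by edgeR and 0% and 0.0477% by DESeq2. At an unadjusted p below 0.05 there were 1 raised and 0 lowered members at 8 h, with 0.667% of all rows. At 24 h there were 1 and 4, with 3.11% of all rows. These counts too come from the fit without the block.

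In OCI-Ly3 too, libraries of the same replicate number deviated together between compound 3 and DMSO, so the numbers were taken as pairs there. With the replicate number as a block, limma called 1 raised member at 8 h, row 4884, where 0.357% of all rows were called. It had 4.68, 1.32 and 2.34 CPM with compound 3 and 8.79, 5.10 and 10.3 CPM with DMSO at 8 h, with no overlap. At 24 h it had 1.75, 2.69 and 2.71 CPM with compound 3 and 3.80, 5.32 and 4.26 CPM with DMSO, again with no overlap. The difference was -1.31 at 8 h and -0.69 at 24 h, with an adjusted p of 0.000776 and 0.0122 with the block (limma, SE 0.15) and of 1 and 0.675 without it (SE 0.37). The same row was higher with both hairpins than with shCntrl in TMD8, and there it had 7.61, 3.51 and 2.46 CPM with compound 3 and 9.42, 4.77 and 2.36 CPM with DMSO at 8 h. The difference between the lines at 8 h was 1.12 (SE 0.52, limma adjusted p = 1 without the block). With the block, limma called 0 raised members for the difference between the lines at 8 h, where 0.0159% of all rows were called.

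At 24 h in OCI-Ly3 the block gave calls in 6 of 74 lowered members, 5 higher and 1 lower with compound 3, near the share of all rows, 9.07%. The most changed was row 3596, with 137, 167 and 117 CPM with compound 3 and 91.0, 81.8 and 67.9 CPM with DMSO. Its difference was 0.79 (SE 0.14, limma adjusted p = 0.00253 with the block and 0.166 without). The groups did not overlap. The other 5 called were rows 8512, 10588, 11512 and 19174, higher by 0.37 to 0.47, and row 22259, lower by 0.38.

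**Figure D3:**
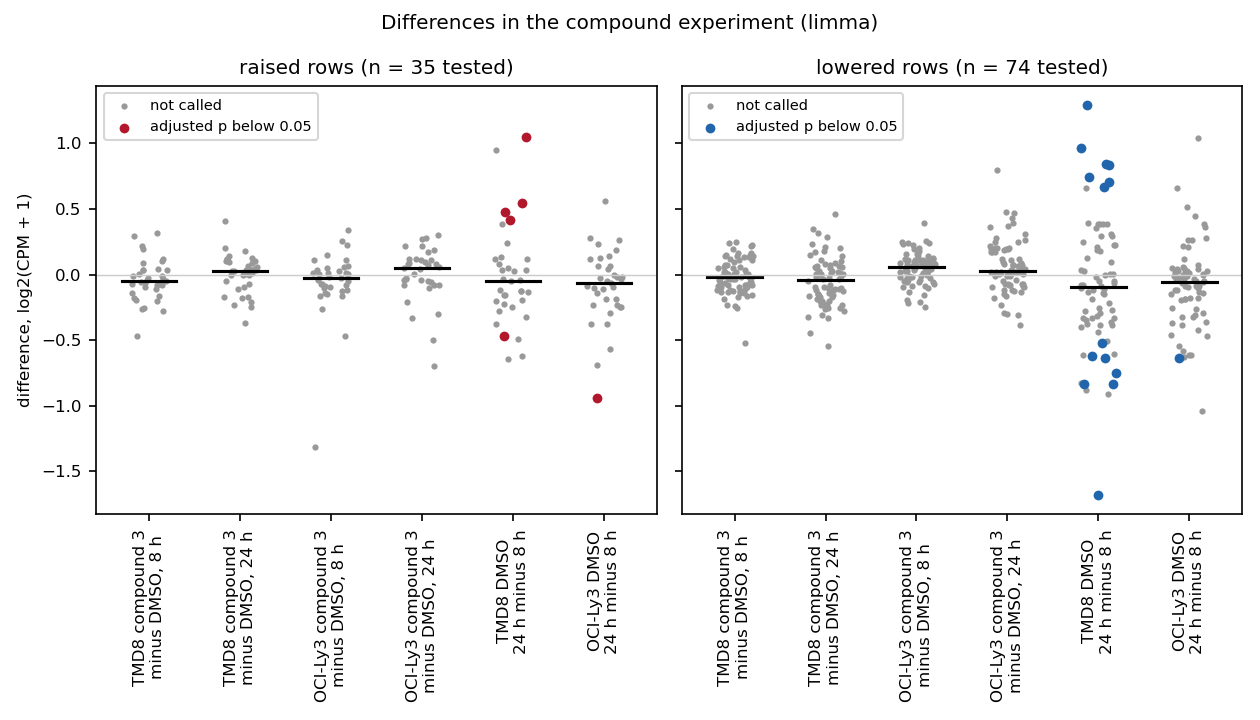
Difference of each tested member on the log2(CPM + 1) scale (y axis) in 6 comparisons of the compound experiment, for the 35 raised (left) and 74 lowered (right) members. Each point is 1 member, bars are medians, and coloured points have a limma adjusted p below 0.05. Coloured points appear only between the times in DMSO, 5 raised and 14 lowered members in TMD8 and 1 of each in OCI-Ly3.

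In the fit without a block, more members were called between the culture times than with the compound, and the same held over all rows. Between DMSO at 24 h and at 8 h in TMD8, limma called 5 of 35 raised members, 4 higher and 1 lower at 24 h, and 14 of 74 lowered members, 7 higher and 7 lower. Of all rows 7.16% were called, 3.45% higher and 3.71% lower. At an unadjusted p below 0.05 there were 7 of 35 and 31 of 74, against 26.4% of all rows. The raised count was 1 without DMSO 8 h replicate 1, 2 without 8 h replicate 3, 0 without 24 h replicate 1, 0 without 24 h replicate 2 and 2 without 24 h replicate 3. The lowered count was 7 without DMSO 8 h replicate 1, the library that stood apart, and 2 raised and 10 lowered members were called without both TMD8 8 h libraries numbered 1. The shares of all rows called in these fits are not given here. A fall among members thus cannot be told from a fall over all rows. The medians were -0.05 over raised and -0.09 over lowered members, with 0.02 over all rows, so neither set moved one way.

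Row 3596 fell most with time in TMD8. It had 2.26, 2.06 and 1.88 CPM in DMSO at 24 h and 13.1, 7.32 and 7.10 CPM in DMSO at 8 h, a difference of -1.68 (SE 0.23, limma adjusted p = 0.000394). It kept its call in all 10 alternatives and without each of the 24 libraries. Row 5997 rose most, with 11.8, 9.92 and 11.3 CPM at 24 h and 1.77, 5.12 and 5.95 CPM at 8 h (1.29, SE 0.29, limma adjusted p = 0.0128). The lowest value was that of DMSO 8 h replicate 1, and without that library the adjusted p was 0.100. In both rows the times did not overlap.

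Among raised members, row 11175 had 80.8, 78.9 and 52.6 CPM in DMSO at 24 h and 22.5, 42.8 and 37.4 CPM in DMSO at 8 h in TMD8 (1.05, SE 0.24, limma adjusted p = 0.0144). Its call was lost without 8 h replicate 1, 24 h replicate 1 or 24 h replicate 2, with an adjusted p of up to 0.115. Row 1972 had 6.35, 5.60 and 5.64 CPM at 24 h and 4.40, 4.09 and 2.75 CPM at 8 h (0.55, SE 0.15, limma adjusted p = 0.029). That call was lost in 4 alternatives and without 8 h replicate 3 or any of the 24 h replicates, with an adjusted p of up to 0.213 over the alternatives. Neither row's times overlapped.

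In OCI-Ly3, limma called 1 of 35 raised and 1 of 74 lowered members between the times, where 3.19% of all rows were called. Row 7506 had 15.3, 9.998 and 9.50 CPM in DMSO at 24 h and 31.9, 17.5 and 20.8 CPM in DMSO at 8 h (-0.94, SE 0.22, limma adjusted p = 0.0235). Row 11512 had 0.989, 1.19 and 1.5 CPM at 24 h and 2.59, 2.33 and 2.41 CPM at 8 h (-0.63, SE 0.15, limma adjusted p = 0.0254). The times did not overlap in either. Each call was lost without 3 libraries: both without DMSO 8 h replicate 1 and 24 h replicate 2, row 7506 also without 24 h replicate 3 and row 11512 also without 24 h replicate 1. Same-numbered DMSO libraries deviated together across the times, and with the block 2 raised and 9 lowered members were called, where 10.8% of all rows were.

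The time change differed between the lines in 0 raised and 1 lowered member by limma, with 0.23% of all rows. At an unadjusted p below 0.05 there were 7 of 35 raised and 15 of 74 lowered members, against 10.4% of all rows. That member was row 5961, with 3.73, 3.51 and 4.59 CPM in DMSO at 24 h and 1.64, 2.03 and 1.63 CPM in DMSO at 8 h in TMD8. In OCI-Ly3 DMSO it had at most 0.0288 CPM in any of the 6 libraries, where no change could be seen. The difference of the time changes was 0.83 (SE 0.16, limma adjusted p = 0.0277). The call was lost without 7 single libraries, OCI-Ly3 DMSO 8 h replicate 1 and its 3 24 h replicates and TMD8 DMSO 8 h replicates 1 and 3 and 24 h replicate 3, with an adjusted p of up to 0.0837. It was also lost with a pseudocount of 0.25, by edgeR and by DESeq2, with an adjusted p of up to 0.922.

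The compound experiment gives a further reference for the knockdown levels, since its labels name no hairpin. The experiments were separate, so this is a description, and infection, time in culture and experiment cannot be told apart. In TMD8, the lowered members had a median difference from the 6 DMSO libraries of 0.15 with hairpin 1, 0.07 with hairpin 2 and 0.72 with shCntrl. The group median of shCntrl lay above that of DMSO in 75 of the 78 (96.2%), against 55.2% of all rows. All 3 shCntrl libraries lay above all 6 DMSO libraries in 49 of the 78, with 20.6% of all rows. For hairpin 1 this held in 11, with 24.6% of all rows, and for hairpin 2 in 7, with 19.3%. The members were chosen as rows in which shCntrl exceeds the hairpins, and the choice and this comparison share the shCntrl libraries, which favours a high shCntrl value.

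The raised members showed another arrangement in TMD8. Their median difference from DMSO was 0.42 with hairpin 1, 0.45 with hairpin 2 and -0.12 with shCntrl. The group median lay above DMSO in 33 of the 37 with hairpin 1, with 56.9% of all rows, in 33 with hairpin 2, with 57%, and in 14 with shCntrl, with 55.2%. All 3 libraries lay above all 6 DMSO libraries in 22 with hairpin 1, with 24.6% of all rows, in 10 with hairpin 2, with 19.3%, and in 3 with shCntrl, with 20.6%. Here the choice of members favoured high hairpin values and low shCntrl values. In OCI-Ly3 the rule held each member's hairpin groups within 0.3 of shCntrl, so the 3 knockdown groups lay close to each other by choice. Their median differences from DMSO were 0.07, 0.08 and 0.10 for lowered members and 0.26, 0.12 and 0.16 for raised members. The order is hairpin 1, hairpin 2 and shCntrl. Over all eligible rows these differences ran from 0.04 to 0.07 in both lines.

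Examples show the levels behind these differences in TMD8. Row 17481 had 2.5 to 3.79 CPM with the hairpins and 7.19 to 8.26 CPM with shCntrl, against 0.682 to 2.76 CPM with DMSO. Row 2766 had 0.29 to 0.639 CPM with the hairpins and 1.88 to 2.37 CPM with shCntrl, against 0.111 to 0.461 CPM with DMSO. In row 17481 the hairpin libraries were above most DMSO libraries, while in row 2766 they overlapped them.

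**Figure D4:**
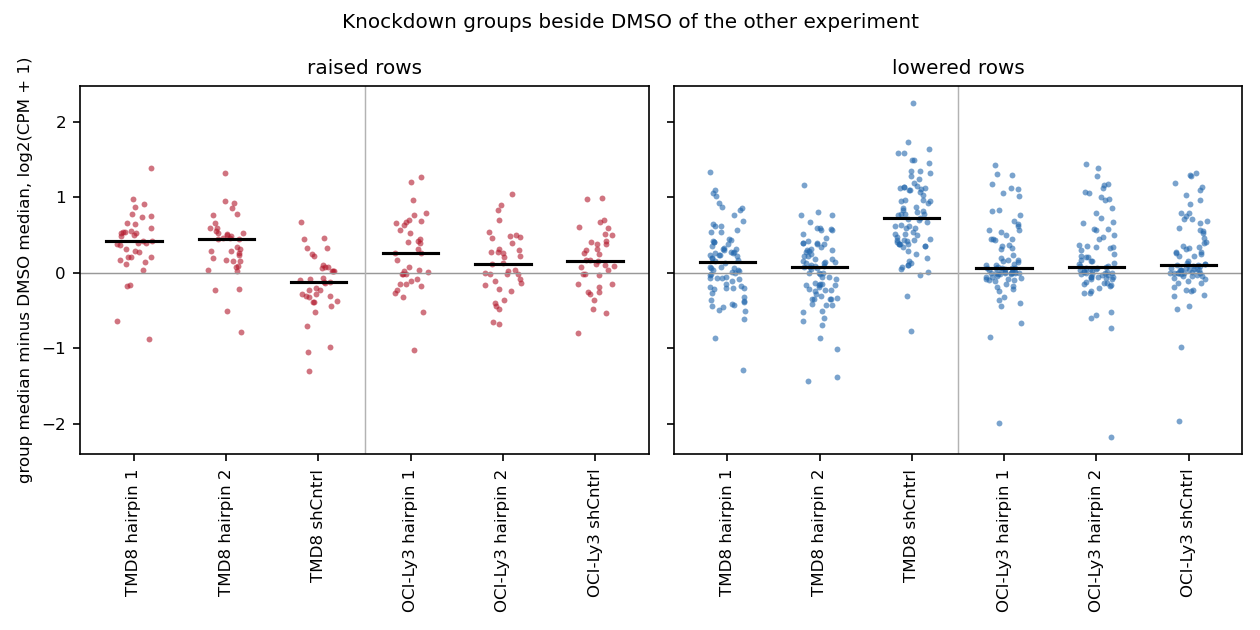
Group median of log2(CPM + 1) minus the median of the 6 DMSO libraries of the same line (y axis), for each knockdown group of both lines, over the 37 raised (left) and 78 lowered (right) members. Each point is 1 member and bars are medians. In the right panel TMD8 shCntrl stands apart at a median of 0.72, with the TMD8 hairpins at 0.15 and 0.07, and in the left panel the TMD8 hairpins stand at 0.42 and 0.45 with shCntrl at -0.12.

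By library, the lowered set varied less within the TMD8 hairpin groups than the raised set. The median over the lowered members, relative to the mean of shCntrl, was -0.50, -0.55 and -0.55 in the TMD8 hairpin 1 libraries and -0.65, -0.65 and -0.59 in those of hairpin 2. Over the raised members it was 0.43, 0.48 and 0.49 with hairpin 1 and 0.52, 0.26 and 0.43 with hairpin 2, where replicate 2 was the lowest. In OCI-Ly3, the raised members had 0.28, 0.18 and 0.07 with hairpin 1 and 0.06, 0.05 and -0.10 with hairpin 2. Under compound 3 in TMD8, the medians relative to DMSO ran from -0.08 to 0.21 over the raised members and from -0.13 to 0.07 over the lowered ones. The DMSO libraries themselves ran from -0.10 to 0.14 and from -0.10 to 0.12, so the compound libraries mostly lay within the spread of their controls.

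**Figure D5:**
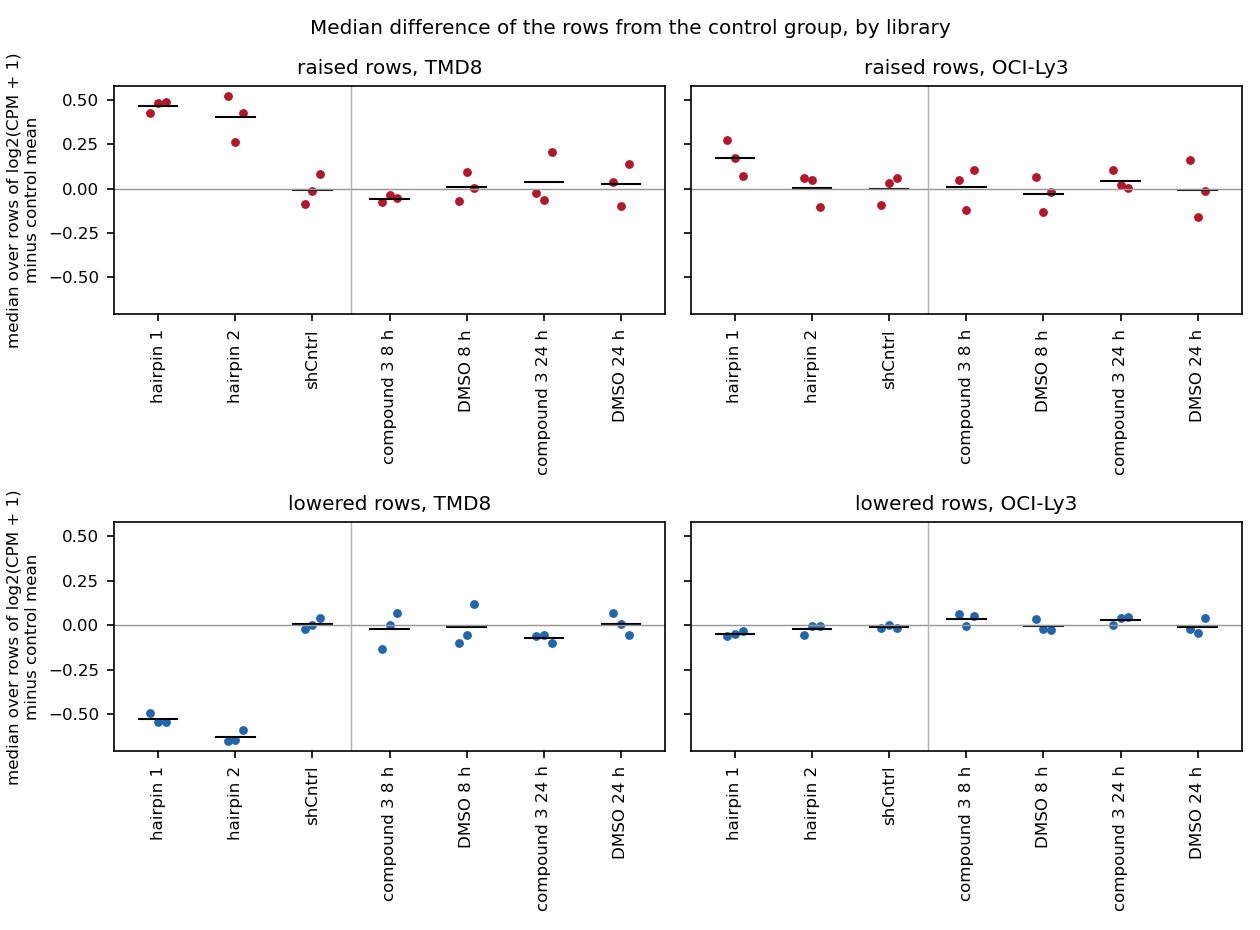
Median over the raised (top) or lowered (bottom) members of log2(CPM + 1) minus the mean of the control group (y axis), which is shCntrl for the knockdown and DMSO of the same time for the compound. Each point is 1 library, bars are means of 3 libraries, and the line parts the experiments. TMD8 hairpin libraries lie at 0.26 to 0.52 (raised) and -0.65 to -0.50 (lowered). TMD8 compound 3 libraries lie at -0.08 to 0.21 (raised) and -0.13 to 0.07 (lowered).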

How the data were processed

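Libraries were stranded and mRNA-selected, per the labels' protocols, and STAR and the build hg19 are named in the submitters' processing notes. How reads were counted, and on which strand, is not given in the sources used here, while rows were matched across files by their number, on the assumption that all files share 1 order. Each library has 1 file, in which the authors deposited CPM over gene models that the file names call RefSeq. Every value was a whole multiple of what 1 read is worth (100% within 1e-06), and these steps imply 20.5 to 24.5 M reads a library in the knockdown and 32.3 to 40.9 M with the compound, of which the rows hold 73.6% to 79.3% and 71.9% to 79.6%. Depth covers counting error only. Near-identical copies and overlapping genes, whose reads could be split between rows, were not separable.

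Rows with at least 1 CPM in at least 3 of the 24 compound libraries were tested on log2(CPM + 1) with limma 3.58.1 (R 4.3.3), in 1 group-means fit with a mean-variance trend, and were called at a two-sided Benjamini-Hochberg adjusted p below 0.05 over all 12589 rows tested. On this scale the changes of low rows look smaller than they are. edgeR 4.0.16 (quasi-likelihood) and DESeq2 1.42.0, on the recovered reads, were alternatives, and the fits were tested on simulated data. Other alternatives were the pseudocount, the filter, rescaling, 1 line alone, each library left out and the replicate number as a block. Within a line, the numbers were taken as pairs where all 3 same-number correlations of deviations from the group mean exceeded 0.1: TMD8 8 h (0.75 to 0.92), OCI-Ly3 8 h (0.72 to 0.81) and 24 h (0.38 to 0.60), and OCI-Ly3 DMSO across times (0.32 to 0.70). Between the lines in DMSO these correlations were 0.12 to 0.44 at 24 h and 0.085 to 0.275 at 8 h. The numbers were not taken as pairs there.

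The members, the rule for them and the tests were chosen with earlier results of these data known. Named rows were, in each direction, the 6 with the largest of the smaller TMD8 changes, the 2 on each side of the limit, the 2 with the highest TMD8 DMSO mean, the 3 furthest with the hairpins' direction and the 1 furthest against it under the compound in TMD8, and up to 2 called members for each DMSO comparison. Rows called only with the block, rows not tested and row values cited for contrast were added after their values were seen. No sequences are printed, since the files do not pair row numbers with genes.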

Additional observations from a re-analysis of the deposited data

Results flagged for a closer look

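A difference between the lines under the same contrast was called for 1 of 74 lowered members, the time change in DMSO (24 h minus 8 h, TMD8 minus OCI-Ly3). This was row 5961, whose log2 difference of 0.832 (SE 0.159, limma adjusted p = 0.0277) passed the test of the difference itself. With almost no reads in OCI-Ly3, that line had no level to change, so the value restates the time change in TMD8. The row had 3.73, 3.51 and 4.59 CPM at 24 h and 1.64, 2.03 and 1.63 CPM at 8 h in TMD8 DMSO, higher in 3 of 3 libraries, and at most 0.0288 CPM in OCI-Ly3 DMSO. Over the alternatives its adjusted p ran from 0.0135 to 0.922, and the call was lost with a pseudocount of 0.25, by edgeR and by DESeq2.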

How the results depend on the processing

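The rule kept 24 raised rows after median-ratio rescaling and 16 with group means in place of medians, against 37; all 24 and 13 of the 16 are members. Leaving out 1 knockdown library gave 21 to 53 raised and 57 to 84 lowered rows, with 22 raised without TMD8 shCntrl replicate 1, 21 and 23 without TMD8 hairpin 2 replicates 1 and 3, and 24 without OCI-Ly3 shCntrl replicate 2. Of the 78 lowered members, 46 were kept with group means, 51 with a pseudocount of 0.25 and 58 after quantile normalization. Of the 37 raised members, a pseudocount of 0.25 kept 31 and quantile normalization 23. Without OCI-Ly3 shCntrl replicates 2 and 3, 45 and 44 lowered members were kept. In the knockdown the same-number correlations with shCntrl ran from -0.47 to 0.28, so the numbers do not pair those samples. A replicate block there, the median of changes within numbers, was chosen after seeing the data and kept 20 raised and 75 lowered rows, 17 and 58 of them members.

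With compound 3, the count stayed at 0 for both sets in TMD8 in all alternatives and leave-one-out fits. The block called 0.0159% of all rows in TMD8 at 8 h and 0.0318% at 24 h. In OCI-Ly3 the replicate block gave 1 raised member at 8 h (0.357% of all rows called), and 1 raised and 6 lowered at 24 h (9.07%). There 1 lowered member was called without both TMD8 8 h libraries numbered 1, and 0 to 1 with single libraries left out (1 without DMSO 24 h replicate 3). With members chosen without OCI-Ly3 shCntrl replicate 1, 1 raised row was called at 8 h. For the difference of the compound effects at 24 h the block gave 1 lowered member, where the TMD8 numbers do not pair the samples. The block called 2.07% of all rows there.

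Between the times in TMD8 DMSO, where the numbers do not pair the samples either, the raised count of 5 became 1 with a pseudocount of 0.25, 3 at 5 CPM, 2 by edgeR, 0 with 1 line alone, 8 with the block and 2 without both 8 h libraries numbered 1; the lowered count of 14 became 7 with 1 line alone and 25 with the block. Leave-one-out ranges were 0 to 7 and 7 to 19. Of all rows, the block called 20.5% there and edgeR 6.59%, against 7.16% in the main fit. In OCI-Ly3 DMSO the raised count of 1 became 0 with no filter or 1 line alone and 2 by DESeq2, with the block and with members chosen without OCI-Ly3 shCntrl replicate 1. The lowered count of 1 became 2 with a pseudocount of 0.25 or edgeR, 0 at 5 CPM or after quantile normalization, 6 by DESeq2, 9 with the block, 7 without both TMD8 8 h libraries numbered 1 and 3 with members chosen without OCI-Ly3 shCntrl replicate 1. Leave-one-out ranges were 0 to 2 and 0 to 4. Of all rows, DESeq2 called 6.93% there, the block 10.8%, edgeR 3.06% and the fit with no filter 1.44%, against 3.19%. For the time change between lines, the lowered count of 1 became 0 at 5 CPM, 2 with no filter, quantile normalization, edgeR or members chosen after median-ratio rescaling, and 4 by DESeq2, with the block or without both TMD8 8 h libraries numbered 1. It ran from 0 to 5 over the leave-one-out fits, and 1 raised row was called with members chosen without OCI-Ly3 shCntrl replicate 1. Of all rows, DESeq2 called 0.993% for this change, the block 1.28%, edgeR 0.135% and the fit with no filter 0.237%, against 0.23%. Between the lines in DMSO, 40 lowered members were called at 5 CPM, where fewer rows are tested, and leave-one-out counts ran from 25 to 28 raised and 63 to 66 lowered. With the block, 29 raised and 66 lowered members were called there, with 72.9% of all rows. For the other alternatives and the leave-one-out fits the shares of all rows are not given here. Their counts thus cannot tell a shift among members from a shift over all rows.

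The median of the lowered members moved to 0.126 by edgeR and 0.139 by DESeq2 in OCI-Ly3 at 24 h, to -0.168 by edgeR between the times in TMD8, and to -0.127 with a pseudocount of 0.25, -0.195 by edgeR and -0.194 by DESeq2 between the times in OCI-Ly3. The edgeR and DESeq2 values are log2 fold changes of reads, without the 1 added to CPM. They and those with a pseudocount of 0.25 are thus not on the scale of the main fit. With 1 library left out, medians in TMD8 under the compound ran from -0.0755 to -0.0137 (raised) and -0.0859 to 0.0631 (lowered) at 8 h, from -0.0819 to 0.104 and -0.129 to -0.0336 at 24 h, and from -0.0579 to 0.0501 and -0.0623 to 0.00141 for the mean. In OCI-Ly3 they ran from -0.133 to 0.0609 and 0.0208 to 0.0864 at 8 h, and from -0.0588 to 0.1 and 0.00397 to 0.0659 at 24 h. Between the times they ran from -0.119 to -0.0259 and -0.133 to 0.00988 in TMD8, and from -0.187 to 0.0257 and -0.0765 to -0.0415 in OCI-Ly3. Where a cause is not named, the cause was not tested. Of 705 values of single rows under other settings, 669 kept direction and side of the threshold, 34 lost a call, 2 gained one and 0 changed sign. The block changed no other call of a paired comparison reported here.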
